A study of Mus musculus with 3 samples.

Results

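The enzymes described here pass carbon from threonine, serine and glycine into the folate cycle. Their RNA was measured at day 0 and day 4 of embryoid body differentiation in mouse, at day 4 with and without a Brachyury knockdown. The enzymes are Tdh, Gcat, Gldc, Shmt1, Shmt2, Mthfd1, Mthfd2, Phgdh, Psat1 and Psph, and all 10 were found among the 32255 gene symbols used. They were chosen by name, with earlier results of these data known. Messenger RNA was sequenced from the D3 line of embryonic stem (ES) cells, whose strain of origin is given as (C3H/HeH x 101/H)F1. The 3 groups were wildtype ES cells at day 0, wildtype control embryoid bodies (EBs, the clusters that ES cells form as they differentiate in suspension) at day 4, and EBs with a Brachyury knockdown at day 4. There was 1 library per group, made from whole cultures, so differences are given without a replicate check and without a test. The control column of the second table is named nontarget, and how the knockdown was made is not given in the sources used here. In whole cultures, fewer cells of a type and less RNA per cell cannot be told apart.

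Levels are FPKM, fragments scaled by transcript length and by mapped fragments, deposited in 2 tables. One table sets ES cells against control EBs and the other sets control EBs against knockdown EBs, so both comparisons share the control library. A gene was called higher or lower when log2(FPKM + 1) differed by at least 1, a rule of size that corresponds to 2-fold. FPKM summed to between 568352 and 786277 per column, and the number of reads behind them is not known here. T, the gene of Brachyury, was at 0.297 FPKM in ES cells, 254 in control EBs and 2.47 in knockdown EBs, in the direction its label gives.

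Threonine dehydrogenase (Tdh) oxidises threonine in mitochondria, and glycine C-acetyltransferase (Gcat) splits the product into glycine and acetyl-CoA. Glycine is then broken down by the glycine cleavage system, in which Gldc is the decarboxylase, and serine by the hydroxymethyltransferases Shmt1 and Shmt2. Both routes load carbon onto tetrahydrofolate for purine, thymidylate and methionine synthesis. Mouse ES cells are known for high Tdh and for a need for threonine in culture.

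Tdh stood apart from the other 9 genes. Its RNA was abundant in ES cells, scarce in control EBs and intermediate in knockdown EBs. The folate enzymes Shmt2, Mthfd2 and Mthfd1 and the glycine decarboxylase Gldc were below their ES cell level in control EBs and close to the control value in knockdown EBs. Gcat, the enzyme that follows Tdh, was higher in control EBs. The 3 enzymes of serine synthesis, Phgdh, Psat1 and Psph, stayed within 2-fold throughout, as did Shmt1. In control EBs, Psat1 and Shmt1 lay just inside the rule and Gldc and Mthfd1 just beyond it, so these 2 pairs are set apart by the threshold only.

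**Figure D1:**
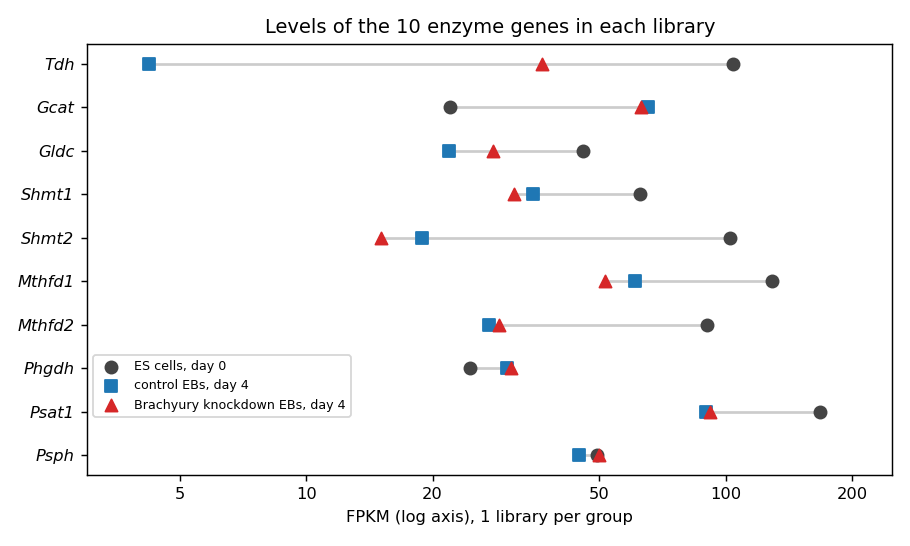
FPKM of the 10 enzyme genes on a log axis, with 1 point per library (circle, ES cells; square, control EBs in the first table; triangle, knockdown EBs) and a line over their range. Tdh spans 4.22 to 104 FPKM. Every gene except Psph has both EB libraries on the same side of ES cells.

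Tdh (ENSMUSG00000021953, mm9 chromosome 14, 64111184 to 64127929) was at 104 FPKM in ES cells, 4.22 in control EBs and 36.5 in knockdown EBs. Control EBs had thus the lowest level, and the knockdown value was 35.0% of the ES cell value, read from the other table. The control EB level was 24.8-fold below that of ES cells (log2 difference −4.34), with p = 1.34e-10 in the authors' deposited table. It was 8.65-fold higher in knockdown than in control EBs (log2 difference 2.85), with p = 3.00e-05 in the authors' deposited table. Both p-values are unadjusted and compare 1 library with another. Only 50 of 13913 genes had a lower difference in the first comparison, and 52 of 13759 a higher one in the second. Of 13033 genes compared in both tables, 210 were lower in control EBs and higher in the knockdown (209 without genes whose control level differs 2-fold or more between the tables), and 0 besides Tdh were beyond it in both differences. Both differences rest on the same low control value, which the tables gave as 4.216 and 4.218 FPKM.

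Tdh has a near-identical copy whose listed values follow its own. Gm13929, a transcribed processed pseudogene on chromosome 2 (111840337 to 111841461 on mm9), aligned to a Tdh transcript over 1125 bases at 97.1% identity. It was at 80.7 FPKM in ES cells, 3.29 in control EBs and 20.9 in knockdown EBs. How fragments that match both were divided is not known here, so the split between gene and copy is uncertain. Their sum was 185, 7.51 and 57.4 FPKM, of which Tdh took 56.4%, 56.1% and 63.6%. On the summed values the control was 24.6-fold lower than ES cells and the knockdown 7.64-fold higher than the control, so both calls held with the copy added. The other gene in the deposited Tdh locus, RP23-279B13.3, was at 1.63 FPKM in ES cells and listed at 0 in both EB libraries.

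Markers of naive pluripotency were lower in control EBs than in the ES library, as Tdh was, and 4 of 6 were higher in the knockdown. Of 7 such markers 6 were found, and all 6 were below their ES cell level in control EBs, with a median log2 difference of −5.62. In knockdown EBs 4 of the 6 were higher than in control EBs and 0 were lower, with a median of 1.64. Zfp42, a pluripotency zinc finger gene, was at 467 FPKM in ES cells, 5.51 in control EBs and 28.5 in knockdown EBs. Nr0b1, which encodes the nuclear receptor DAX1, was at 61.6, 0.417 and 5.89 FPKM. Nanog, a core pluripotency factor, did not follow Tdh. It was at 257 FPKM in ES cells, 128 in control EBs and 91.7 in knockdown EBs, 2.01-fold lower in control EBs at the edge of the rule, and lower again by 0.48 on the log2 scale in the knockdown with p = 0.0156 in the authors' deposited table. With the median of all genes set to 0, 5 of the 6 markers were lower in control EBs. By an unadjusted p under 0.05 in the authors' deposited table, 1 was higher and 1, Nanog, lower in the knockdown. Single markers ran from 33.9 to 467 FPKM in ES cells, from 0.417 to 128 in control EBs and from 1.45 to 91.7 in knockdown EBs. Their summed level was 1106 FPKM in ES cells, 138 in control EBs and 141 in knockdown EBs, with none listed at 0, and Nanog made up most of it in both EB libraries. Of 4 neural markers 3 were found and 2 compared, and both were higher in knockdown EBs. In control EBs against ES cells they differed in direction, with Tubb3 lower (24.7 to 0.487 FPKM) and Hesx1 higher (0.369 to 3.31). The 3 summed to 25.1 FPKM in ES cells, 3.79 in control EBs and 28.4 in knockdown EBs, with Pax6 listed at 0 throughout. Different genes carried these sums. Tubb3 made up most of the sum in ES cells, and Hesx1 most of it in knockdown EBs (18.7 FPKM, against 9.75 for Tubb3). Markers of the primitive streak went the other way, with 5 of 5, T among them, above their ES cell level in control EBs and 4 of 5 lower in the knockdown than in the control. Of 4 markers of primed epiblast 3 were compared (Dnmt3b was listed at 0), all higher in control EBs, and 1, Otx2, was higher in the knockdown. Of 4 of definitive endoderm, Sox17 was left out because the tables disagree on its control level (0.312 and 26.3 FPKM). Of the other 3, 3 were higher in control EBs, and 1 was higher and 1 lower in the knockdown. Of 5 of visceral endoderm, 1 was higher and 2 lower of 3 compared in control EBs, and 2 were higher of 4 in the knockdown. The part of such cells in the Tdh values was not tested. Nor were the marker counts tested against the shares of all genes compared. Those shares were 15.8% higher and 19.5% lower for control EBs against ES cells, and 5.31% and 2.53% in the knockdown. Of 5 markers of feeder fibroblasts, Col3a1 was listed at 0 in every library, and the sum was between 2.91 and 6.95 FPKM, most of it Thy1.

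The 5 genes whose pair of log2 differences lay nearest to that of Tdh, of 10839 considered over the 3 libraries, were Spp1, Tubb3, Gm13929, Morc1 and Ooep. Spp1, which encodes the secreted protein osteopontin, was nearest, at a Euclidean distance of 0.147, and was at 142, 6.39 and 57.2 FPKM in ES cells, control EBs and knockdown EBs. Tubb3, a tubulin gene used as a neuronal marker, lay at a distance of 0.226 with 24.7, 0.487 and 9.75 FPKM. Gm13929, at 0.503, is the copy of Tdh described above. Morc1 and Ooep, known from germ cells and oocytes, lay at 0.664 and 0.679.

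Gcat (ENSMUSG00000006378, mm9 chromosome 15, 78861304 to 78873988) had the opposite order in ES cells and EBs. It was at 22.04 FPKM in ES cells, 65.2 in control EBs and 62.8 in knockdown EBs. Both EB libraries were thus well above ES cells and close to each other. The control EB level was 2.96-fold above that of ES cells (log2 difference 1.52), with p = 1.09e-05 in the authors' deposited table. Its log2 difference between knockdown and control EBs was −0.05, with p = 0.831 in the authors' deposited table. Per length, Tdh had 4.74 times the level of Gcat in ES cells, 0.0646 times in control EBs and 0.581 times in knockdown EBs. The step that makes the intermediate thus had the more abundant RNA in ES cells, and the step that uses it had it in both EB libraries.

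Gldc (ENSMUSG00000024827, mm9 chromosome 19, 30172939 to 30249908) was at 45.6 FPKM in ES cells, 21.9 in control EBs and 27.9 in knockdown EBs. ES cells were the highest and both EB libraries lay close together. Gldc was 2.08-fold lower in control EBs (log2 difference −1.02), with p = 0.00464 in the authors' deposited table, and lies at the edge of the 2-fold rule. It was within 2-fold in the knockdown, at a log2 difference of 0.34. Its partners in the glycine cleavage system were Amt, the aminomethyltransferase, Gcsh, the lipoyl carrier, and Dld, a dehydrogenase shared with other complexes. Of these 3, Amt was lower in control EBs, at 35.2 FPKM against 82.5 in ES cells. Gcsh was at 54.7 and 84.0 FPKM and Dld at 56.7 and 58.1, both within 2-fold. All 3 were within 2-fold in knockdown against control EBs, with Gcsh at 84.0 and 108 FPKM.

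Serine hydroxymethyltransferase moves the side-chain carbon of serine to tetrahydrofolate, Shmt2 in mitochondria and Shmt1 mainly in the cytosol. Mthfd2 and Mthfd1 then oxidise the folate-bound carbon in the same compartments. The stretches of 250 bases before the RefSeq start of these genes and of Gcat are shown, because these isozymes differed in level within the same libraries and Gcat had the opposite direction. They are on GRCm38.p6, written 5′ to 3′ on the gene's strand, and capitals mark CCAAT, the motif of nuclear factor Y, on either strand (ATTGG on the strand shown).
Shmt2, chr10:127522445-127522694, minus strand: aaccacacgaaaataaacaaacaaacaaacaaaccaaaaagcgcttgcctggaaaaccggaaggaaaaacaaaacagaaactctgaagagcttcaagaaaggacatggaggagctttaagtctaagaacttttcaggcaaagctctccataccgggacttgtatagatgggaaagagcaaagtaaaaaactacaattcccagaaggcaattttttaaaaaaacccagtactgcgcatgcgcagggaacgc
Shmt1, chr11:60811266-60811515, minus strand: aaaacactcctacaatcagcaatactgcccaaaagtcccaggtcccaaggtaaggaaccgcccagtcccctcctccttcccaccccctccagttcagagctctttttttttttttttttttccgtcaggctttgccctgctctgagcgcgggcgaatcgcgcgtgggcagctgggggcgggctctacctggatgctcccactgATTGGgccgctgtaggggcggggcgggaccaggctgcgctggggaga
Mthfd2, chr6:83317605-83317854, minus strand: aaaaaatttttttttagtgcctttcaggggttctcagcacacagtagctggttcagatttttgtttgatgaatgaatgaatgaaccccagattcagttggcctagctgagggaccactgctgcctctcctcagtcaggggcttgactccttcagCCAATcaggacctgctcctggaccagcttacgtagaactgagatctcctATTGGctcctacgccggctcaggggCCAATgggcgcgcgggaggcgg
Mthfd1, chr12:76254982-76255231, plus strand: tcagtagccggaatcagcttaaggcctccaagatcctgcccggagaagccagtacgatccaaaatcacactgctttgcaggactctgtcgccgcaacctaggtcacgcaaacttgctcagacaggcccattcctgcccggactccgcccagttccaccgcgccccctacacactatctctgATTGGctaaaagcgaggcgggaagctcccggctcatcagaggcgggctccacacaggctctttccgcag
Gcat, chr15:79030624-79030873, plus strand: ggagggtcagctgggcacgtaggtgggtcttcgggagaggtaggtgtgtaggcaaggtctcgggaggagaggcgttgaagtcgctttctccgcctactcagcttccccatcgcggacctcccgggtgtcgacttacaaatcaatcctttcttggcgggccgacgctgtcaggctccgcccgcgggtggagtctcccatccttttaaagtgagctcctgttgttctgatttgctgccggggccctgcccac

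The mitochondrial isozymes were lower by more than the cytosolic ones in control EBs. Shmt2 (ENSMUSG00000025403, mm9 chromosome 10, 126951995 to 126959491) was at 102 FPKM in ES cells, 18.9 in control EBs and 15.1 in knockdown EBs. Its level in control EBs was 5.41-fold below that of ES cells (log2 difference −2.38), with p = 6.18e-12 in the authors' deposited table. After Tdh this was the lowest difference of the 10 genes. Shmt1 (ENSMUSG00000020534, mm9 chromosome 11, 60591027 to 60624663) was at 62.4, 34.6 and 31.3 FPKM in the same order of libraries. It was 1.80-fold lower in control EBs, within the 2-fold rule (log2 difference −0.83), with p = 0.000373 in the authors' deposited table. Shmt2 had 1.64 times the level of Shmt1 in ES cells, 0.546 times in control EBs and 0.481 times in knockdown EBs. The more abundant RNA of the pair was therefore Shmt2 in ES cells and Shmt1 in both EB libraries.

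Mthfd2 (ENSMUSG00000005667, mm9 chromosome 6, 83255685 to 83267600) was at 90.1 FPKM in ES cells, 27.3 in control EBs and 28.8 in knockdown EBs. Its level in control EBs was 3.30-fold below that of ES cells (log2 difference −1.69), with p = 5.17e-08 in the authors' deposited table. Mthfd1 (ENSMUSG00000021048, mm9 chromosome 12, 77356219 to 77420807) was at 129, 60.8 and 51.5 FPKM. It was 2.12-fold lower in control EBs (log2 difference −1.07), with p = 1.49e-06 in the authors' deposited table. Mthfd2 had 0.700 times the level of Mthfd1 in ES cells, 0.449 times in control EBs and 0.560 times in knockdown EBs. Mthfd1 was thus the more abundant RNA of this pair in every library. Neither pair was called in the knockdown, where the log2 differences were −0.31 for Shmt2, −0.14 for Shmt1, 0.09 for Mthfd2 and −0.24 for Mthfd1.

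**Figure D2:**
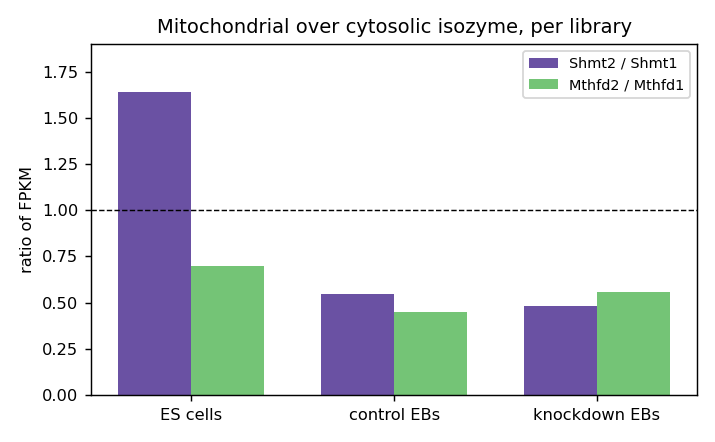
Ratio of FPKM of the mitochondrial to the cytosolic isozyme in each library (bars, 1 library per group; dashed line, equal levels; control values from the first table). Shmt2 over Shmt1 was 1.64 in ES cells and 0.546 and 0.481 in the EB libraries, and Mthfd2 over Mthfd1 was 0.700, 0.449 and 0.560.

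In the 250 bases shown, Mthfd2 holds CCAAT 3 times, with first bases 96, 47 and 22 bases before the start, Shmt1 and Mthfd1 hold it once each, and Shmt2 and Gcat do not hold it. A start was listed for 9 of the 10 genes, with 10 windows in all because Psat1 has 2. CCAAT was in 7 of the 10 windows, those of 7 genes, against 33.8% of all 32851 promoter windows of that length. GGGCGG, the GC box of Sp1-like factors, was in 6 of the 10 and in 32.7% of all windows, searched on both strands. The E-box CACGTG (6.02% of all windows), the ATF4-type element TGATGNAA (3.45%) and the T-box half-site TCACACCT (1.12%) were in 0 of the 10. These are matches of letters in a short window and not sites of binding.

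Serine is made in the cytosol from a glycolytic intermediate by Phgdh, Psat1 and Psph in turn. Psat1, the aminotransferase (ENSMUSG00000024640, mm9 chromosome 19, 15979168 to 16021827), was at 168 FPKM in ES cells, 89.7 in control EBs and 91.9 in knockdown EBs. It was the most abundant of the 10 RNAs in every library. Its 1.87-fold lower value in control EBs lay just within the 2-fold rule (log2 difference −0.90), with p = 1.83e-06 in the authors' deposited table. Psph, the phosphatase (ENSMUSG00000029446, mm9 chromosome 5, 130271434 to 130293129), was at 49.4, 44.7 and 49.9 FPKM, nearly level in the 3 libraries. Phgdh, the dehydrogenase of the first step (ENSMUSG00000053398, mm9 chromosome 3, 98117093 to 98143913), was at 24.6, 30.1 and 30.8 FPKM. Psat1 had 6.83 times the level of Phgdh in ES cells and 2.98 times in both EB libraries.

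The Phgdh level is uncertain because of its many pseudogenes. By alignment, 20 annotated pseudogenes matched a Phgdh transcript over at least 300 bases at 90.4% to 98.7% identity, and 7 of them had a row in the tables. One, ENSMUSG00000082280, was listed at 51.6 FPKM in ES cells, 45.3 in control EBs and 38.3 in knockdown EBs, above Phgdh itself each time. With the 7 copies added, Phgdh came to 80.1, 76.6 and 71.4 FPKM. The log2 difference between control EBs and ES cells was 0.28 for Phgdh alone and −0.06 for the sum, so its sign depends on the copies. It was also negative with equal sums of FPKM (−0.16), and all of these are within 2-fold. In the knockdown it was 0.03 alone and −0.10 for the sum. Psat1 has 1 such copy, Gm12611, and the Psat1 row held 93.1% to 93.9% of their summed level. A Psph transcript shares 452 bases with one of the gene Cct6a on the opposite strand, and Cct6a was at 347 to 425 FPKM. The sources used here do not say whether strand was used in counting, so the Psph level is uncertain too. A Gcat transcript shares 367 bases at 100% identity with one of Galr3 on the same strand, and the Galr3 gene ID had no row. How such fragments were counted is not known here. Other genes also lie in the deposited loci of Shmt2 (Ndufa4l2), Shmt1 (Smcr8 and a small RNA), Gldc (Gm6635) and Psat1 (Gm3329), and their levels are not reported here.

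In the comparison of control EBs with ES cells, 1 of the 10 genes was higher, 5 were lower and 4 were within 2-fold. Of all 13913 genes compared, 15.8% were higher and 19.5% lower. Among genes that reached 5 FPKM in 1 of the libraries, as all 10 did, these shares were 15.6% and 20.7%. The median log2 difference of the 10 genes was −0.96 and that of all genes −0.10. Gldc and Mthfd1 lie just beyond the rule at −1.02 and −1.07, and Psat1 and Shmt1 just inside it at −0.90 and −0.83. By an unadjusted p under 0.05 in the authors' deposited table, 1 was higher and 7 were lower, against 17.7% and 19.6% of all genes. With the libraries scaled so that the median gene did not differ, Gldc (−0.92) and Mthfd1 (−0.96) were no longer called, which left 3 lower.

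These counts depend on scaling, and FPKM summed to less in ES cells than in EBs. With equal sums of FPKM, the split of all genes was 9.89% higher and 31.0% lower and the median of all genes moved to −0.51. On that scale the 10 genes had a median of −1.41, with Shmt1 (−1.28) and Psat1 (−1.35) also lower. Relative to the median of all genes, the 10 were lower by 0.86 as deposited and by 0.90 with equal sums. The 10 levels added up to 798 FPKM in ES cells, 398 in control EBs and 427 in knockdown EBs, or 693, 393 and 390 without Tdh.

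**Figure D3:**
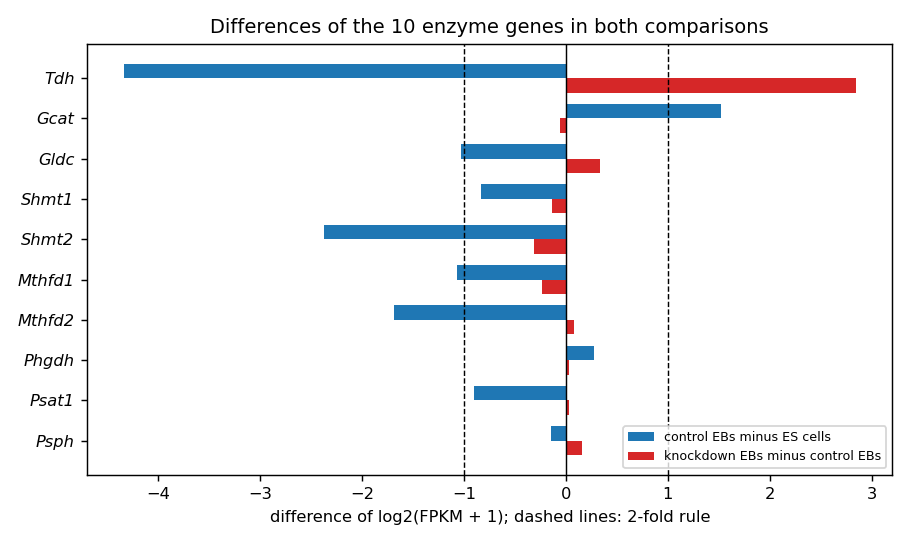
Difference of log2(FPKM + 1) for each of the 10 genes in control EBs minus ES cells (blue) and knockdown minus control EBs (red), with dashed lines at the 2-fold rule and 1 library per group. Tdh is at −4.34 and 2.85, and the other 9 red bars lie between −0.31 and 0.34.

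In the comparison of knockdown with control EBs, Tdh was the 1 of the 10 genes called higher, 0 were lower and 9 were within 2-fold. Of all 13759 genes compared, 5.31% were higher and 2.53% lower, and among those with at least 5 FPKM the shares were 4.07% and 2.33%. The other 9 genes had log2 differences from −0.31 (Shmt2) to 0.34 (Gldc), with a median of 0.03 against 0.06 for all genes. By an unadjusted p under 0.05 in the authors' deposited table, Tdh was again the 1 gene higher and 0 were lower, against 6.15% and 4.68% of all genes, and p was at least 0.379 for each of the other 9. With 1 library per group this does not show that the 9 were the same. The 2 quantifications of the control library differed by at most 0.667% for any of the 10.

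The order of the 10 levels changed between ES cells and EBs. In ES cells it was Psat1, Mthfd1, Tdh, Shmt2, Mthfd2, Shmt1, Psph, Gldc, Phgdh and Gcat. In control EBs it was Psat1, Gcat, Mthfd1, Psph, Shmt1, Phgdh, Mthfd2, Gldc, Shmt2 and Tdh. The knockdown library kept the control order except for Tdh, which was the fifth. With no replicates, neighbours such as Tdh and Shmt2 in ES cells (104 and 102 FPKM) cannot be ranked apart. Among genes with at least 1 FPKM, Tdh was at percentile 92.0 in ES cells, 25.1 in control EBs and 78.7 in knockdown EBs, and the other 9 lay between percentiles 58.3 and 95.5 in every library.

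Enzymes around these routes were followed in 7 lists of 53 genes. Their counts stand beside the shares of all genes compared. For control EBs against ES cells these shares were 19.5% lower and 15.8% higher. For knockdown against control EBs they were 2.53% and 5.31%. The lists are short, and whether any count departs from these shares was not tested. Of 6 other genes of mitochondrial folate metabolism, control EBs had 2 lower and 1 higher than ES cells (median log2 difference −0.39). Mthfd1l, which releases the mitochondrial carbon as formate, was at 52.8 and 25.6 FPKM, a log2 difference of −1.02 that is not called when the median of all genes is set to 0. Aldh1l2 was lower and Mthfd2l higher, both below 5 FPKM in each of these libraries. Sfxn1, a mitochondrial serine carrier, was at 37.4 and 34.7 FPKM. In the knockdown 0 of the 5 compared were called, with Mthfd1l at 25.6 and 18.6 FPKM and Mthfd2l at 4.98 and 8.57 in control and knockdown EBs.

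Of 12 genes of cytosolic folate metabolism 10 were compared, and 3 were lower and 2 higher in control EBs (median 0.26). Folr1, a folate receptor, had the lowest difference, from 74.1 FPKM in ES cells to 5.47 in control EBs. Mtr and Mtrr, which encode methionine synthase and its reductase, were at 19.2 and 5.73 FPKM and at 15.3 and 5.89 FPKM. Tyms, thymidylate synthase, was higher in control EBs (148 FPKM) than in ES cells (71.2), but was not called with equal sums of FPKM, where the list's median was −0.12. In the knockdown 0 of 11 were called, and Aldh1l1 (4.25 and 8.84 FPKM) was within the rule.

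Purine synthesis consumes formyl-folate. Of its 6 genes 2 were lower and 0 higher in control EBs (median −0.93). Gart was lower, at 59.8 FPKM in control EBs against 180 in ES cells, as was Ppat, the amidotransferase of the first step, at 39.7 against 90.9. In ES cells and control EBs, Pfas (44.2 and 22.1 FPKM) and Atic (91.3 and 48.9) lay just within the rule, and with equal sums of FPKM 4 of the 6 were lower. All 6 were within 2-fold in the knockdown, with Paics at 319 and 267 FPKM. Of 8 genes of the methionine cycle and its branch to cysteine 6 were compared, of which Cbs (22.1 and 5.11 FPKM) and Cth (79.3 and 34.8) were lower in control EBs and 0 were higher (median −0.35). In the knockdown 0 of 6 were called.

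Of 8 genes of serine and glycine transport and breakdown 6 were compared, and 2 were lower and 2 higher in control EBs (median −0.07, but 0.03 with the median of all genes set to 0). The amino acid carriers Slc1a5 (83.9 and 10.1 FPKM) and Slc38a1 (35.7 and 13.6) were lower, and serine racemase, Srr (1.34 and 5.55), and Sdsl were higher. In the knockdown 0 of 6 were called, and Slc38a2 was at 52.9 and 76.8 FPKM.

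Psat1, Phgdh, Shmt2 and Mthfd2 are known targets of ATF4, the transcription factor of the amino acid stress response. Of 10 other genes, Atf4 itself and others tied to that response, control EBs had 5 lower and 1 higher than ES cells (median −1.07). Atf4 was at 261 and 190 FPKM, within 2-fold. Chac1, a glutathione-degrading enzyme (22.2 and 2.06 FPKM), Trib3 (27.9 and 5.16) and Atf5 (41.9 and 8.15) were lower, and the cystine carrier Slc7a11 (0.876 and 8.53) was higher. In the knockdown 1 of 10 was called, Atf3, which was lower at 1.21 FPKM in knockdown EBs (log2 difference −1.66), with p = 0.110 in the authors' deposited table. Cebpb, a bZIP transcription factor gene, was at 6.56 and 2.79 FPKM in control and knockdown EBs, just inside the rule at −0.996, with p = 8.18e-06 in the authors' deposited table. Slc7a11 moved the other way and also stayed inside the rule, with 17.0 FPKM after the knockdown against 8.53 without it. Its log2 difference was 0.92, with p = 0.101 in the authors' deposited table. In the knockdown 2 of the 10 were lower with a pseudocount of 0.5 or 0.1, or under a 1.5-fold rule. The same count of lower genes held with the median of all genes set to 0 or with equal upper quartiles. Under the 1.5-fold rule 1 was also higher. Atf4 was at 190 FPKM in both EB libraries.

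**Figure D4:**
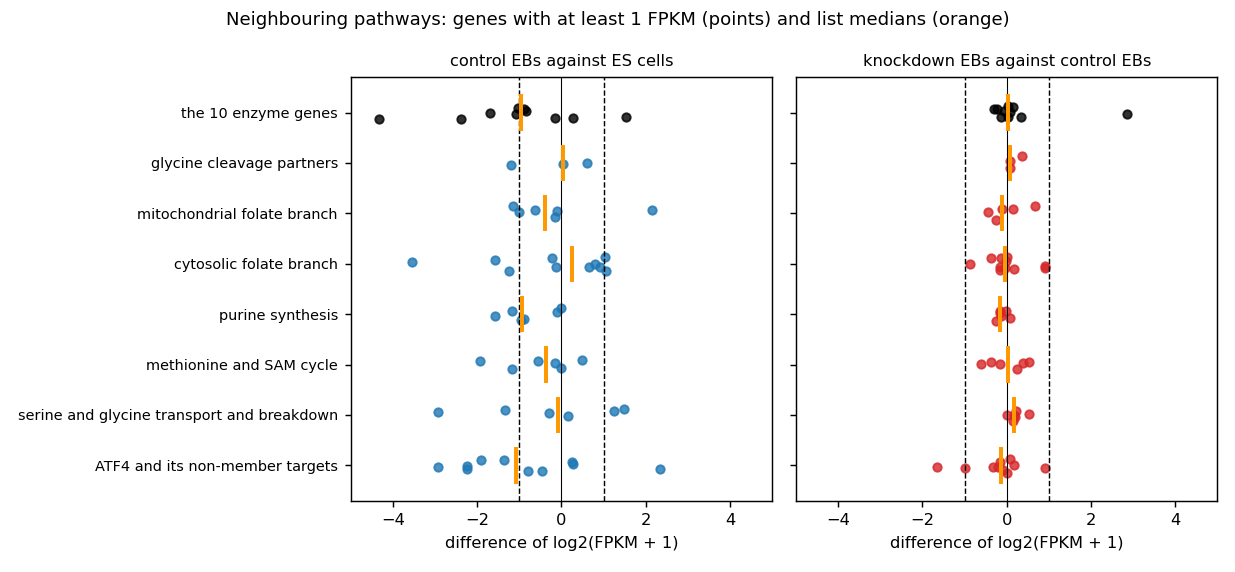
Differences of log2(FPKM + 1) for the 10 enzyme genes (black) and the 7 surrounding lists, with control EBs against ES cells on the left and knockdown against control EBs on the right. Points are the genes compared (1 FPKM or more in a library), orange bars are list medians and dashed lines the 2-fold rule. On the left the medians run from −1.07 to 0.26, and on the right all list medians lie between −0.15 and 0.18.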

How the data were processed

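Groups were taken from the sample titles. Per the submitters' processing notes, Bowtie, Cuffdiff and the mouse build mm9 were used. The sources used here give neither versions nor the gene annotation. The authors deposited 2 tables of 36808 rows with FPKM, a value scaled to transcript length and to the size of the library, and no longer a count. The deposited tables also give an unadjusted p-value and the natural log of the fold, the latter not used for any result here.

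Rows of short RNAs (4408) were left out, 25 symbols turned into dates were looked up by gene ID in GENCODE M21, and rows that share a symbol were added up. Within a table, genes reaching 1 FPKM in a library were compared on log2(FPKM + 1), which understates the change of low genes. Folds in the text are ratios of FPKM. No test was run, as each group was 1 library. The calling step was tested on simulated data with planted folds, all larger than 2-fold and in genes with at least 5 FPKM. Recovering them was thus fixed by the rule. The simulation checks the computation and says nothing of the spread between libraries. Since a 0 may be a failed estimate, such genes are given as listed at 0.

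Members and lists were chosen with earlier results of these data known. Named genes were the 10 members, T, the up to 4 genes per pathway list and 2 per marker list with the greatest difference among those with at least 5 FPKM, and the 5 genes nearest to Tdh by Euclidean distance. Some genes of the lists that meet this rule are not reported here. Other genes named serve to complete a list's count and were chosen after their values were seen. Copies were found with BLAST+ 2.17.0 (megablast, at least 90% identity over 300 bases) among GENCODE M21 transcripts. Promoter sequences are from RefSeq (GRCm38.p6). Gene coordinates are the mm9 loci in the tables, made 1-based. Python 3.11.15 was used. Alternatives were other pseudocounts, floors, scalings, fold rules, the authors' p, the treatment of rows and short RNAs, and, chosen after seeing the data, near-identical copies added and genes with control values 2-fold or more apart between the tables left out.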

Additional observations from a re-analysis of the deposited data

How the results depend on the processing

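In the knockdown comparison, the 10 genes kept their call under all 14 alternatives, the 12 planned, the copies added, and, also chosen after seeing the data, genes with unlike control values in the tables left out. In control EBs against ES cells, Tdh, Shmt2, Mthfd2, Phgdh and Psph kept theirs under all 14. Several alternatives could not change a call of the 10 genes in either comparison. All 10 reached 5 FPKM, none shared its symbol with another row, and their control values were nearly equal in the tables. The other floors, the choice of row, the short RNAs kept and the genes left out therefore say nothing of how firm these calls are. The count of lower genes, 5 as reported, was 3 with the median log2 ratio set to 0, 3 with equal upper quartiles and 3 under a 3-fold rule, and that of higher genes, 1 as reported, was 0 under the 3-fold rule. These follow from the rules themselves, since Gldc and Mthfd1 lie near 2-fold and Gcat between 2-fold and 3-fold. With equal upper quartiles Gldc was at −0.86 and Mthfd1 at −0.91. Shmt1 and Psat1 became lower with equal sums of FPKM, a 1.5-fold rule and the authors' p. Over all genes of the knockdown comparison, 730 were higher and 348 lower. These counts were 1164 and 539 with a pseudocount of 0.1, 400 and 229 with a floor of 5 FPKM, 1580 and 820 under a 1.5-fold rule, and 295 and 123 under a 3-fold rule, and 644 were lower by the authors' p. Against ES cells, 2202 were higher and 2716 lower, which became 3587 and 4403 under the 1.5-fold rule, 981 and 1188 under the 3-fold rule, and 1379 and 4321 with equal sums. No paired analysis was possible because each group was 1 library. The depth of the libraries is unknown, so counting error cannot be given.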

Other observations

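Fpgs, which encodes the enzyme that retains folate in cells, had 0 FPKM for ES cells and control EBs in the first table, whereas the second table gave the same control library 18.4 FPKM and the knockdown library 14.0. Its comparison with ES cells is therefore not used. Sox17 had 26.3 FPKM for ES cells and 0.312 for control EBs in the first table, but 26.3 for control EBs in the second. Control values were 2-fold or more apart between the tables for 270 of 12969 genes (2.08%), and among the enzymes, lists and genes nearest to Tdh these were Fpgs and Sox17. Ftcd, Slc6a9 and Sds were listed at 0 in every library, and Mat1a and Bhmt reached under 1 FPKM.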
